A study of Homo sapiens with 2 samples.

Results

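The genes of the cadherin switch were examined in 2 human lung cancer cell lines. They are the classical cadherin genes CDH1, CDH2 and CDH3, the catenin gene CTNND1, the intermediate filament gene VIM and the transcription factor genes SNAI1, SNAI2, ZEB1, ZEB2 and TWIST1. Their rows were taken by symbol, 10 of the 30843 symbols in the tables, and all 10 were listed. The members were chosen with earlier results of these data known. The lines are MTAC-P, which was derived from PC9 and resists inhibitors of the EGFR tyrosine kinase, and PC9 itself, a lung adenocarcinoma line with an activating EGFR deletion that is sensitive to such inhibitors. Both were grown in DMEM with serum, and the labels name no inhibitor in the medium, no passage number and no derivation procedure for MTAC-P. With 1 RNA-seq library per line, every difference described here compares a pair of libraries, without replicates or a test. The labels do not say whether MTAC-P is 1 clone or a pool of resistant cells.

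In epithelia, E-cadherin binds neighbouring cells to each other, and catenins anchor its tail to actin and keep it at the membrane. During an epithelial to mesenchymal transition (EMT), repressors of the SNAI, ZEB and TWIST families bind short E-box motifs and silence CDH1, while N-cadherin and vimentin come up and cells become motile. Transitions of this kind, complete or partial, have been described in lung adenocarcinoma cells that survive EGFR inhibition.

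Values are FPKM, fragments per kilobase of transcript, scaled to the mapped fragments of the library, summed over the listed transcripts of a symbol, so that levels of different genes can be set side by side per length. The measure of difference is the log2 ratio, log2((MTAC-P + 1)/(PC9 + 1)), which understates differences between values near or below 1. The 11435 genes that averaged 1 FPKM or more were compared, and a difference was counted at 2-fold on this scale. The listed values summed to 685082 in MTAC-P and 693444 in PC9. Read counts were not part of the tables. Genes with 1 annotated transcript of 2000 to 6000 nt and a value above 0 were used to estimate a step. Their low values times length in kb piled up in a window from 0.03 to 0.07. The median in this window, taken as the step, was 0.0461 in MTAC-P and 0.0436 in PC9. Of 648 such genes in MTAC-P 80 lay in the window, 28 in the next range of the same width and 22 below the window. In PC9 these numbers were 64 of 664, 31 and 24, so some values lay below 1 step in both lines. Dividing a member's value times length by this step gives a rough size of the evidence behind it, in steps that would be single fragments if the pile-up marks 1 fragment.

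Of the lung epithelial markers, the keratins, EPCAM and CDH1 were high in both lines and those specific to lung were low. The 9 lung epithelial markers summed to 3875 FPKM in MTAC-P and 3662 in PC9, with KRT18, a simple keratin, at 2720 and 2329 and KRT19 at 429.9 and 549. NKX2-1, the lung lineage factor, was listed at 0 in MTAC-P and at 0.0787 in PC9. The surfactant protein gene SFTPB stood at 1.74 and 1.001 FPKM and NAPSA, an aspartic protease gene of lung alveolar cells, at 1.92 and 1.67. Markers of other cell types were low except for CD68, a lysosomal protein of macrophages that tumour cells also make, and TUBB3, a tubulin of neurons. The fibroblast markers summed to 2.99 FPKM in MTAC-P and 2.50 in PC9 over 8 genes, with PDGFRB at 0.0271 and 0.0574. The endothelial markers summed to 4.28 and 3.55 FPKM over 5 listed genes, of which CDH5 made up 4.13 and 3.34. The leukocyte markers summed to 29.997 and 24.4 FPKM over 7 genes, of which CD68 made up 28.8 and 22.2, while PTPRC stood at 0.0460 and 0.0910. In the set of 4 melanocyte or neural markers TUBB3 made up 31.0 FPKM in MTAC-P and 22.5 in PC9, and 1 of the others was listed at 0 in both. Their part in the results was not tested.

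In MTAC-P, CDH2 was higher than in PC9 while CDH1 stood at the same level. These are bulk libraries, in which more expressing cells and more RNA per cell cannot be told apart. Of the 7 members compared, CDH2 and SNAI2 reached 2-fold as higher in MTAC-P and none as lower, where 7.77% of all compared genes reached 2-fold in either direction, 3.48% with MTAC-P higher and 4.29% with MTAC-P lower. VIM and SNAI1 were above 2-fold as plain ratios and below it with the pseudocount. CDH1, CDH3 and CTNND1 stayed within 2-fold. ZEB1, ZEB2 and TWIST1 were below the minimum mean of 1. SNAI2 and VIM passed that minimum only through MTAC-P, since both were below 1 FPKM in PC9. They could thus only come out as higher in MTAC-P, though not necessarily by 2-fold. CDH2 and SNAI1, at 1.09 and 1.45 FPKM in PC9, could not pass the minimum and reach 2-fold as lower. The absence of lower members was thus fixed in advance for CDH2, SNAI1, SNAI2 and VIM, and nothing is read from it. Among the 3565 genes with a mean of at least 1 and below 5, the range in which VIM, SNAI1 and SNAI2 lie, 12.8% reached 2-fold in either direction, 5.39% with MTAC-P higher and 7.43% with MTAC-P lower.

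**Figure D1:**
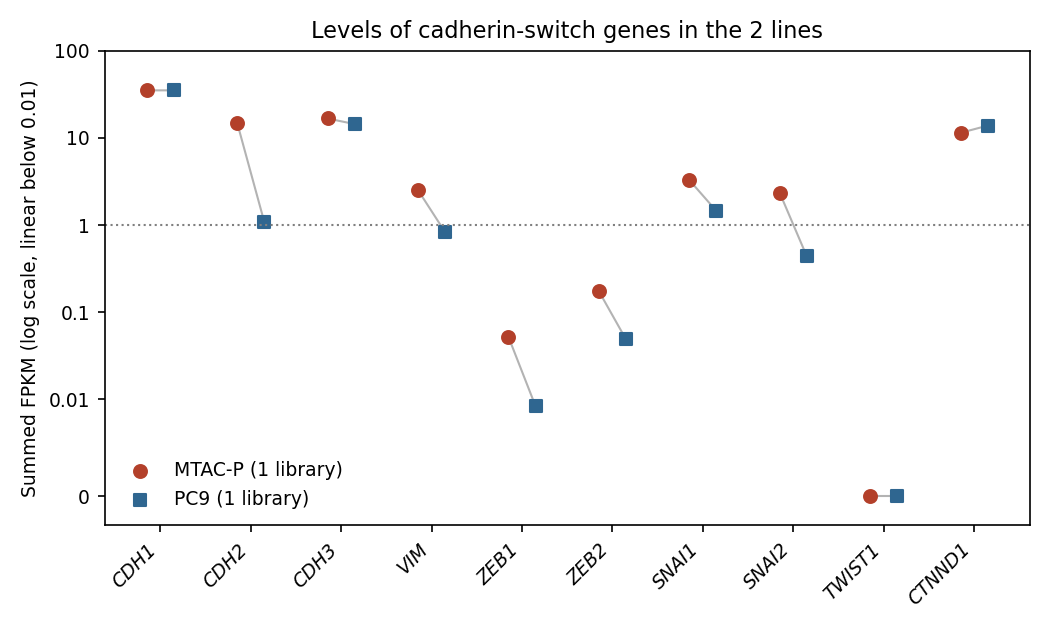
Summed FPKM of each of the 10 members in MTAC-P (circles) and PC9 (squares), 1 library each, on a log axis that is linear below 0.01; the dotted line marks 1 FPKM. CDH1 lies level at 35.1 and 35.2, CDH2 stands at 14.9 in MTAC-P and 1.09 in PC9, and TWIST1 is listed at 0 in both.

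CDH1 encodes E-cadherin, the cadherin of epithelial adherens junctions (chromosome 16, 68737225 to 68835548, GRCh38). It stood at 35.1 FPKM in MTAC-P and 35.2 in PC9, a plain ratio of 0.999. Nearly all of this was the full-length transcript CDH1-201 of 882 codons, at 35.11 FPKM in MTAC-P and 35.12 in PC9. The shorter CDH1-202 stood at 0.0119 and 0.0336. CDH1 was the most abundant of the 3 cadherins in both lines, and about 3724 steps in MTAC-P and 3937 in PC9 lay behind it.

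CDH2 encodes N-cadherin, the cadherin of neurons, heart muscle and many mesenchymal cells (chromosome 18, 27950966 to 28177446, minus strand). Its sum was 14.9 FPKM in MTAC-P and 1.09 in PC9, a log2 ratio of 2.93 and a plain ratio of 13.7. Only 0.227% of compared genes had a log2 ratio at least as high. Set against CDH1, the CDH2 sum was 42.5% of the CDH1 level in MTAC-P and 3.10% in PC9. CDH2 ranked 4361st of all symbols in MTAC-P and 11235th in PC9.

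The size of the CDH2 difference depended on which of its 5 listed transcripts were counted. CDH2-201, the full-length form of 906 codons, stood at 4.75 FPKM in MTAC-P and 0.836 in PC9, a log2 ratio of 1.65. CDH2-203 stood at 10.2 FPKM in MTAC-P and was listed at 0 in PC9. This is a model of 4 exons and 563 nt that is marked as incomplete in GENCODE release 29, and 414 of its bases lie in exons of CDH2-201. CDH2-202, which begins at a downstream first exon and has 875 codons, went the other way, at 0.00487 FPKM in MTAC-P and 0.253 in PC9. CDH2-204 and CDH2-205 were below 0.004 in both lines.

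Short transcripts weigh heavily in a sum of FPKM, because the value is per length. CDH2-203 held 68.2% of the CDH2 sum in MTAC-P, yet about 124 steps against 446 for CDH2-201. Multiplied by length and added up, CDH2 came to 26.3 FPKM times kb in MTAC-P and 4.57 in PC9, a ratio of 5.76, or about 571 and 105 steps. Without transcripts marked as incomplete, a setting chosen after seeing the data, the log2 ratio of CDH2 was 1.46. Full-length CDH2-201 alone was 13.5% of the CDH1 level in MTAC-P and 2.38% in PC9. With a pseudocount of 1, the sum, the sum without incomplete transcripts and CDH2-201 were each above 2-fold, and CDH2-201 alone was below it, at 0.74, with a pseudocount of 5.

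The 3 CDH2 transcripts with the higher values differ in their first exons, and the junctions that tell them apart are shown from the GENCODE release 29 transcripts, 5' to 3', with the last 15 bases before the shared exon in capitals. The preceding exon lies at chr18:28176963-28177446 for CDH2-201, chr18:28036470-28036585 for CDH2-202 and chr18:28159149-28159297 for CDH2-203, all on the minus strand.
CDH2-201: GCGGCCCTGCTTCAGgcgtctgtagaggct
CDH2-202: ATGTTTTCCTTTCAGtgaagtttagcaact
CDH2-203: AAATGCAGGCTTCAGgcgtctgtagaggct
CDH2-201 and CDH2-203 join the same exon from different upstream exons, and CDH2-202 joins a later exon.

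Promoter windows, 250 bases before and 50 after a gene start, were listed for 4 of the 10 members (CDH2, VIM, ZEB1 and ZEB2) among RefSeq windows for GRCh38.p14. They were searched for the E-box CANNTG, which reads the same way on both strands, and for CACCTG or its reverse complement CAGGTG, a form bound by SNAI and ZEB factors and a subset of CANNTG. The CDH2 window at chr18:28177081-28177380, which lies in the first exon of CDH2-201, held no CANNTG, and that at chr18:28036592-28036891, just upstream of CDH2-202, held 1, CAGATG. Neither held CACCTG or CAGGTG, and neither covers the start of CDH2-203 at position 28159297. The VIM window held no CANNTG and the ZEB2 window held 1, CACATG. Of the 7 ZEB1 windows, 4 held at least 1, with CACCTG or CAGGTG in 2 of them. The VIM window (chr10:17227991-17228290) ends before VIM-201 begins at position 17229278. The ZEB2 window (chr2:144520070-144520369) lies upstream of ZEB2-204, which begins at position 144517825. CDH2-201 begins at position 28177446, outside the window in its first exon. The starts of CDH2-201, CDH2-203, VIM-201 and ZEB2-204 were thus not searched. The ZEB1 window at chr10:31318966-31319265 covers the start of ZEB1-202 at position 31319172. Of all 35116 windows, 68.7% held CANNTG and 20.6% held CACCTG or CAGGTG.

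CDH3 encodes P-cadherin, a cadherin of basal and glandular epithelial cells, and lies beside CDH1 on chromosome 16 (68636189 to 68722616), 14608 bases from it. Its sum was 16.7 FPKM in MTAC-P and 14.4 in PC9, a log2 ratio of 0.20. Below this sum its 2 listed transcripts went opposite ways. CDH3-201, of 829 codons, stood at 8.90 FPKM in MTAC-P and 4.99 in PC9, while CDH3-202, of 784 codons, stood at 7.81 and 9.42. CDH3-201 made up 53.2% of the sum in MTAC-P and 34.6% in PC9. Neither transcript reached 2-fold, with log2 ratios of 0.72 and -0.24. A shift of this size was common, since 30.1% of the 4641 symbols with at least 2 transcripts at a mean of 1 or more had one at least as large.

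The CDH3 transcripts have the same coding start and the same 14 inner exons, and differ in the acceptor site of the last exon, by 98 bases, which puts the end of the protein in another reading frame. The last exon codes for 69 codons in CDH3-201 and for 24 in CDH3-202. The tail of a classical cadherin is the part that binds catenins, so the last junction is shown, with 15 bases of the shared exon at chr16:68695777-68695923 in lower case and the first 30 bases of each last exon in capitals, plus strand.
CDH3-201: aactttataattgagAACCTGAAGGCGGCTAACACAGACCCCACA
CDH3-202: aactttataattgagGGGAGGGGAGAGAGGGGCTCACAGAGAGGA

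CTNND1 encodes p120 catenin, which binds the tails of all 3 cadherins and slows their removal from the membrane (chromosome 11, 57753243 to 57819546). Its sum was 11.4 FPKM in MTAC-P and 13.8 in PC9, a log2 ratio of -0.25, and its exons are shared with the read-through gene TMX2-CTNND1, which the counting could split. In other systems, mesenchymal cells make longer p120 forms that start at the first coding start, and epithelial cells make shorter forms from a later one. The 6 listed transcripts that start at the first coding start (position 57791479) summed to 0.823 FPKM in MTAC-P and 0.642 in PC9, or 7.19% and 4.64% of CTNND1. The 2 listed transcripts that start at position 57795613 summed to 7.72 FPKM in MTAC-P and 7.93 in PC9, or 67.5% and 57.3%. The remaining 25.4% in MTAC-P and 38.1% in PC9 came from 2 IDs that are not in GENCODE release 29, mostly ENST00000399039 (2.88 and 5.27 FPKM), so its coding start was not assigned. Both lines thus had the later start as the main annotated form among the 8 of 35 coding transcripts that were listed.

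Within the later-start forms, the 2 transcripts differed in opposite directions. CTNND1-206, of 867 codons, stood at 4.31 FPKM in MTAC-P and 2.60 in PC9, and CTNND1-207, of 832 codons, at 3.41 and 5.33. Their log2 ratios were 0.56 and -0.52, and neither reached 2-fold. They differ in coding sequence by 2 exons, of 18 bases (chr11:57806461-57806478) and 87 bases (chr11:57815915-57816001), that CTNND1-206 has and CTNND1-207 lacks. These exons are shown in capitals with 15 bases of the exons around them, plus strand, above the same junction without them.
CTNND1-206: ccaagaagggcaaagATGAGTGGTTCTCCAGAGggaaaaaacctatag
CTNND1-207: ccaagaagggcaaagggaaaaaacctatag
CTNND1-206: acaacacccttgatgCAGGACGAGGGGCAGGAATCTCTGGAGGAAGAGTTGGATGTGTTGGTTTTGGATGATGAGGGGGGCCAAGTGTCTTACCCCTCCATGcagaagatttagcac
CTNND1-207: acaacacccttgatgcagaagatttagcac
Among first-start forms, CTNND1-205 and CTNND1-202, which are the longest at 968 and 962 codons, were higher in MTAC-P at 0.253 and 0.5004 FPKM, against 0.0229 and 0.0746 in PC9. CTNND1-208 and CTNND1-204, of 933 and 939 codons, were lower in MTAC-P at 0.00809 and 0.00597 FPKM, against 0.295 and 0.149 in PC9. The largest shift in share of a CTNND1 transcript was 18.9 percentage points, and 29.6% of the 4641 symbols had one at least as large. For CDH2 it was 68.2 points, reached by 1.36% of them. Transcripts on both sides of 0 were found in 62.3% of these symbols, as in CDH3 and CTNND1.

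**Figure D2:**
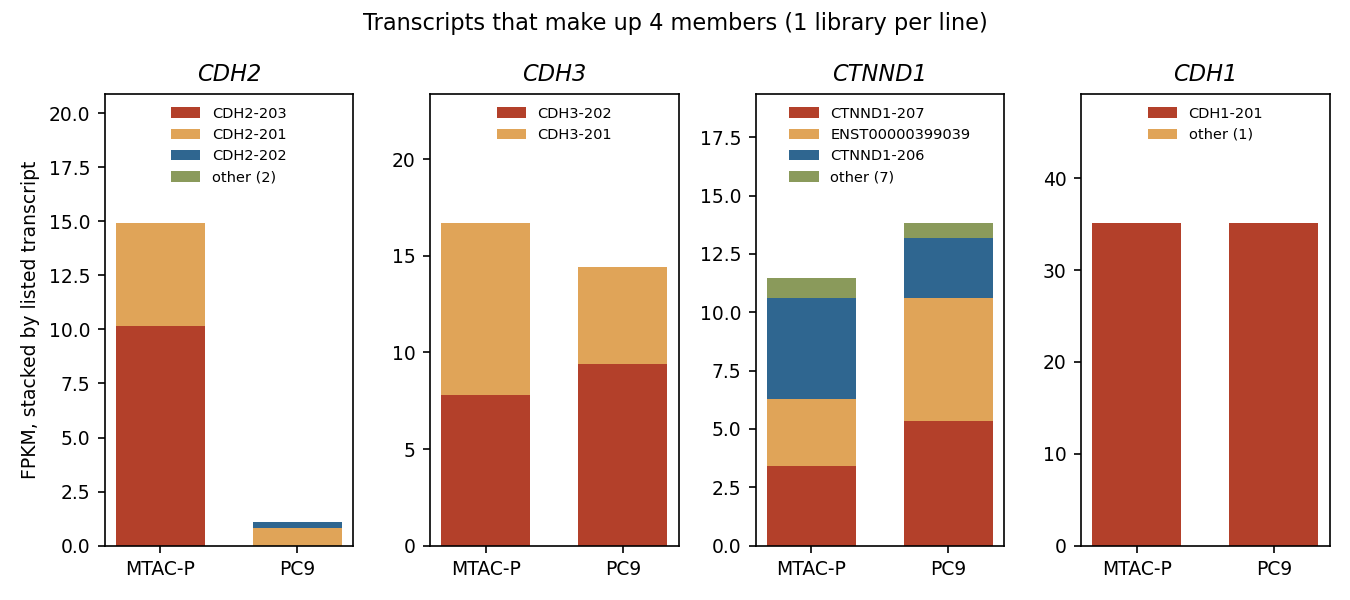
FPKM of the listed transcripts of CDH2, CDH3, CTNND1 and CDH1, stacked, with MTAC-P left and PC9 right in each panel (1 library each; each panel has its own axis from 0, and other gives the number of further transcripts). CDH2 in MTAC-P is 10.2 FPKM of the incomplete CDH2-203 and 4.75 of full-length CDH2-201, while CDH1 is 1 transcript at the same level in both lines.

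Of the 38 listed transcripts of the members, 10 were listed at 0 in both lines and 11 had a mean of at least 1 FPKM. Of these, CDH2-201, CDH2-203 and SNAI2-201 reached 2-fold as higher in MTAC-P and none as lower. All 3 were below 1 FPKM in PC9 and passed the minimum mean only through MTAC-P. They could thus only come out as higher in MTAC-P, and nothing is read from this count. Among all 19406 transcripts with such a mean 16.6% reached 2-fold in either direction, 7.76% with MTAC-P higher and 8.88% with MTAC-P lower.

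VIM encodes vimentin, the filament protein of mesenchymal cells (chromosome 10, 17228259 to 17237593). It stood at 2.52 FPKM in MTAC-P and 0.831 in PC9, a plain ratio of 3.03 and a log2 ratio of 0.94. All of this but 0.00612 FPKM in PC9 was VIM-201, the form of 466 codons, with about 102 steps in MTAC-P and 35 in PC9. Set against the keratins of the same libraries, of which KRT18 and KRT19 are given above, vimentin was low in both lines. With a pseudocount of 0.1 its log2 ratio was 1.49 and with 5 it was 0.37.

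SNAI1 and SNAI2, the genes of the zinc finger repressors Snail and Slug, were the EMT transcription factors with the higher values. SNAI1 (chromosome 20, 49982999 to 49988886) has 1 coding transcript, which stood at 3.29 FPKM in MTAC-P and 1.45 in PC9, a plain ratio of 2.26 and a log2 ratio of 0.81. About 120 steps lay behind it in MTAC-P and 56 in PC9. SNAI2 (chromosome 8, 48917604 to 48921740, minus strand) stood at 2.35 FPKM in MTAC-P and 0.438 in PC9, a plain ratio of 5.36 and a log2 ratio of 1.22. Its full-length SNAI2-201 stood at 1.89 and 0.300, and its incomplete SNAI2-202 at 0.451 and 0.137. SNAI2 rested on about 89 steps in MTAC-P and 16 in PC9. Together the SNAI genes summed to 5.63 FPKM in MTAC-P and 1.89 in PC9. SNAI1 was the higher of the pair in both lines. With a pseudocount of 0.1 the log2 ratios were 1.13 for SNAI1 and 2.19 for SNAI2, and with 5 they were 0.36 and 0.43, so that SNAI2 no longer reached 2-fold.

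The ZEB genes, which encode repressors with zinc fingers at both ends and a homeodomain-like segment between them, were listed at low values. ZEB2 (chromosome 2, 144364364 to 144524583) stood at 0.175 FPKM in MTAC-P and 0.0489 in PC9, or about 20 and 6 steps, nearly all from ZEB2-204 and ZEB2-201, and its other 7 listed transcripts were at 0 in both. ZEB1 (chromosome 10, 31318495 to 31529814) stood at 0.0523 FPKM in MTAC-P and 0.00931 in PC9, or about 7 and 1 steps. Both were higher in MTAC-P, but values this low had no weight on the log2 scale, with ratios of 0.16 and 0.06. TWIST1, a basic helix-loop-helix factor, was listed at 0 in both lines for both of its transcripts. The 5 factors together summed to 5.86 FPKM in MTAC-P and 1.95 in PC9, nearly all of it from the SNAI genes.

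**Figure D3:**
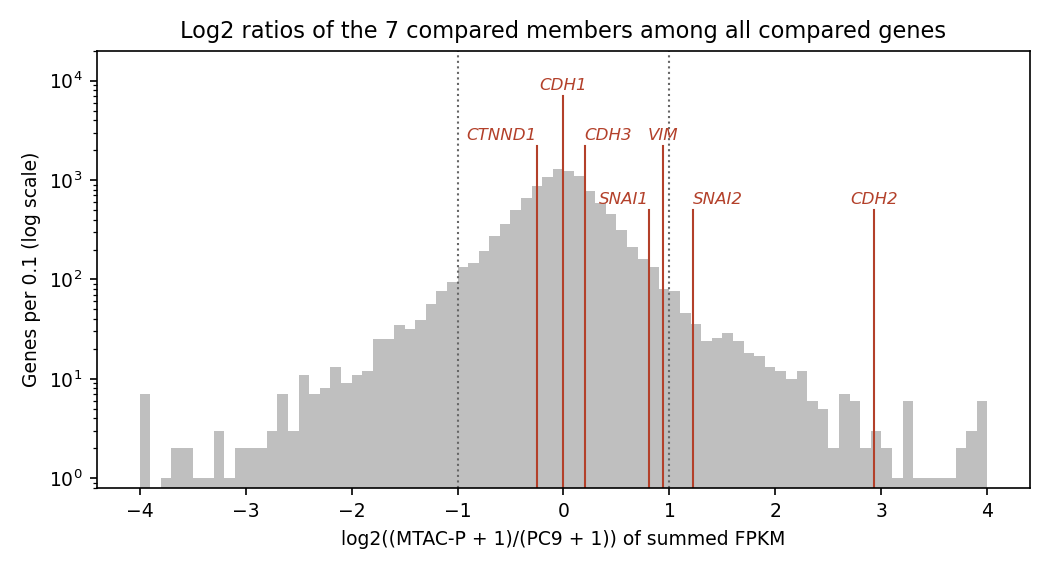
Log2 ratios of the 7 compared members (red lines) over the histogram of all 11435 compared genes in bins of 0.1, with the number of genes on a log axis, ratios beyond -4 or 4 drawn in the end bins and dotted lines at 2-fold. CDH2 at 2.93 lies in the upper tail, SNAI2 at 1.22 past the line, VIM and SNAI1 just inside it, and CDH1, CDH3 and CTNND1 near the centre.

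The members just inside and outside 2-fold were SNAI2, VIM and SNAI1, at 1.22, 0.94 and 0.81. Log2 ratios at least as high were found in 2.37%, 3.94% and 5.26% of compared genes. SNAI2 and VIM passed the minimum mean only through MTAC-P, so their high places were partly fixed by the filter. Large ratios were also more common at low means. With a mean of at least 1 and below 5, 5.39% of genes reached 2-fold as higher, against 3.48% of all compared genes.

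Among the partners of the cadherins, no compared gene reached 2-fold, and with 7.77% of all compared genes at 2-fold a count of 0 in a list of this size is near that share. Of 21 catenins and adherens junction genes, 14 were compared, 6 lay above 0, with a median log2 ratio of -0.03, where the median of all compared genes was -0.02 and 47.6% lay above 0. The most abundant were CTNNB1, beta-catenin, which links cadherins to alpha-catenin and also carries Wnt signals (196 FPKM in MTAC-P and 148 in PC9, 0.40), and ACTN4, an actin crosslinker (183 and 188, -0.04). CTNNA1, the alpha-catenin gene, summed to 0.536 and 0.710 over its listed transcripts. Desmosome genes, which form the other cadherin-based junction of epithelia, had 6 of 12 compared, 4 above 0 and none at 2-fold (median 0.13). DSG2, a desmosomal cadherin, stood at 38.8 and 32.4 FPKM (0.25), and PERP, a desmosome-associated membrane protein, at 265 and 235 (0.17).

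Among other members of the cadherin superfamily, none that was compared reached 2-fold as higher. Of 29 named genes, 28 had a symbol in the tables, 11 were at 0 in both lines and 7 were compared, of which 2 lay above 0 and 2 reached 2-fold as lower (median -0.58), where 4.29% of all compared genes did. The protocadherin gene PCDH7 stood at 2.88 FPKM in MTAC-P and 9.68 in PC9 (-1.46), and CDH24, a type II cadherin gene, at 1.46 and 5.57 (-1.41). CDH11, a mesenchymal cadherin gene, was at 0.0119 and 0.00286. Unfiltered, the 28 had a median of 0. CDH5, the endothelial cadherin gene, was within 2-fold at 4.13 and 3.34. On the same scale, CDH2 was the compared cadherin gene that reached 2-fold as higher in MTAC-P.

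Of 22 other transcription factors tied to EMT, 14 were compared, 9 lay above 0, 3 reached 2-fold as higher and none as lower (median 0.08), where 3.48% and 4.29% of all compared genes did. The largest ratio was that of ETS1, a factor that activates matrix and protease genes (11.2 FPKM in MTAC-P and 2.21 in PC9, 1.92). The others were the chromatin protein gene HMGA2, which can raise SNAI1 and TWIST1 in other systems (113 and 52.1, 1.11), and the homeobox gene PRRX2 (4.18 and 1.42, 1.10). Of ETS1, 54.5% and 51.7% came from transcripts that GENCODE release 29 lists as protein-coding. The rest came from IDs absent there or classed otherwise. Factors that hold the epithelial state had 4 of 14 above 0, 1 at least 2-fold higher and 1 lower (median -0.24). The splicing regulator ESRP2 stood at 8.71 and 2.35 (1.54), all from 1 listed transcript. That transcript is either absent from GENCODE release 29 or not classed there as protein-coding, and these cases were not told apart. The paralogue ESRP1, the more abundant of the pair, stood at 21.7 and 36.1 (-0.71). GRHL3, a grainyhead factor of surface epithelia, stood at 2.27 and 5.75 (-1.04). Of GRHL3, 67.4% in MTAC-P and 55.9% in PC9 came from transcripts that GENCODE release 29 lists as protein-coding.

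Mesenchymal effector genes other than the members had 15 of 30 compared, 11 above 0, 6 at 2-fold as higher and 1 as lower, with a median of 0.63. Over all compared genes 47.6% lay above 0, 3.48% reached 2-fold as higher and 4.29% as lower. Of the higher ones in the list, TAGLN, at 3.30 FPKM in MTAC-P and 0.807 in PC9, passed the minimum mean only through MTAC-P. The list was drawn up with earlier results of these data known and is no independent support for a direction. The matrix gene FN1, whose product fibronectin surrounds mesenchymal cells, had a log2 ratio of 2.73, close to that of CDH2, while S100A4, a calcium-binding protein of motile cells, was lower in MTAC-P by the widest margin of the list (-3.65). The secreted glycoprotein gene FSTL1 had 2.35 and the receptor kinase gene AXL 1.41. The other 15 genes averaged below 1 FPKM. Unfiltered, the 30 had a median of 0.03.

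**Figure D4:**
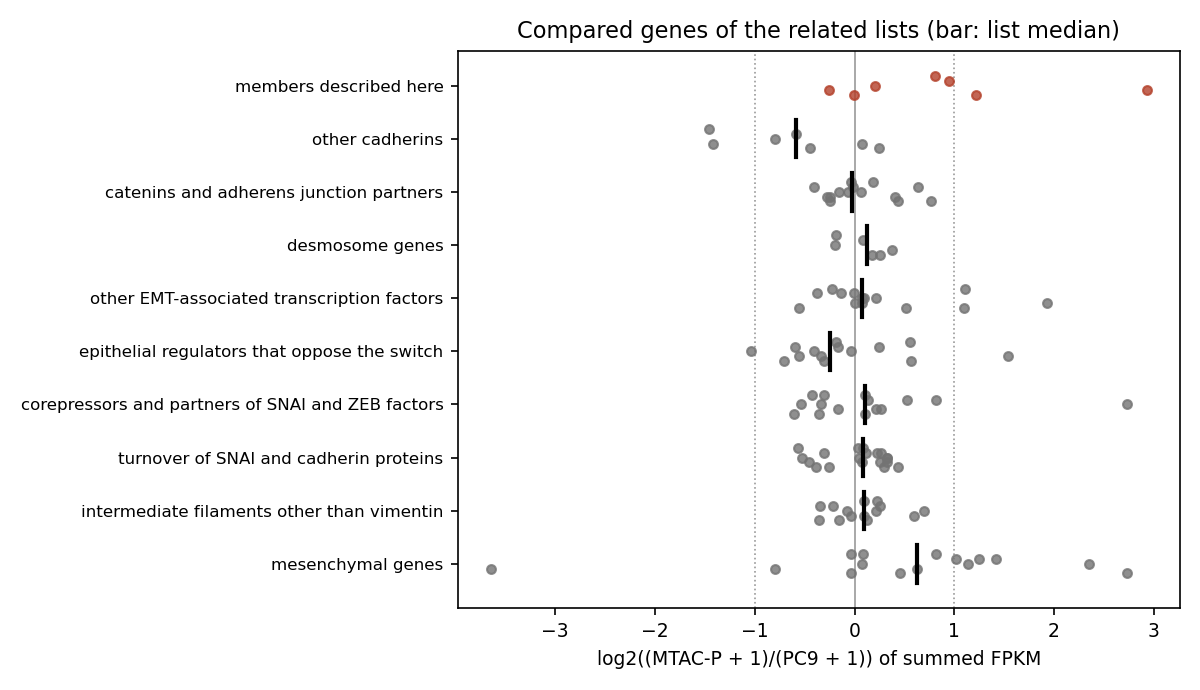
Log2 ratios of the 7 compared members (red, top row) and of the compared genes of 9 related lists (grey; 1 point per gene, vertical bar at each list's median), with dotted lines at 2-fold. Junction and desmosome genes lie within 2-fold, and mesenchymal genes spread from -3.65 (S100A4) to 2.73 (FN1).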

How the data were processed

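Total RNA of 1 library per line (MTAC-P and PC9) was sequenced. Per the submitters' processing notes, Trim Galore, TopHat and Cufflinks were used, with hg38 as the genome. Their versions and the annotation release are not given in the sources used here. Tables deposited by the authors give 1 value per transcript with no unit in the header, taken as FPKM because those notes name Cufflinks. Each file was assigned to its line by its sample record. Triplicate profiles are mentioned by the submitters, whereas 1 column per line was present, and no label mentions pooling. The 65535 transcript IDs end at number 437205, and later IDs were not analysed here, so a sum is over listed transcripts only. An exact 0 can be a failed estimate.

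Values were summed by symbol, and log2((MTAC-P + 1)/(PC9 + 1)) was taken with a pseudocount of 1, a minimum mean of 1 and a threshold of 2-fold (Python 3.11.15, pandas 2.3.3, numpy 2.4.6, matplotlib 3.10.9). The calculation was tested on data simulated from genes at 5 FPKM or more in PC9. CDH2, SNAI2, VIM and SNAI1 lay below that level in PC9, so the simulation does not cover them. With 1 library per line there is no p-value, and all shares over genes describe these libraries. Depth is unknown except for the approximate step described in the results, whose window was set after seeing the data. No label gives the strand of the libraries, so reads of antisense partners of VIM, ZEB1 and ZEB2 cannot be told apart from theirs. GENCODE release 29 (GRCh38) gave coordinates, lengths and junction sequences for 36 of 38 member transcripts. RefSeq (GRCh38.p14) gave promoter windows. The members and lists were chosen with earlier results of these data known. Named were all members, their transcripts at 1 FPKM or more, and from each list up to 4 genes at 2-fold or the 2 most abundant. Other transcripts of the members and the genes CTNNA1, CDH11, ESRP1, NKX2-1, SFTPB, NAPSA, PDGFRB and PTPRC were named after their values were seen. Alternatives were other pseudocounts, scalings, filters, thresholds and transcript sets.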

Additional observations from a re-analysis of the deposited data

How the results depend on the processing

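With 1 library per line, no replicate could be left out. No paired analysis was possible because neither line had a replicate to pair. The 2 members at 2-fold became 4 with a pseudocount of 0.1 (VIM and SNAI1 added) or at 1.5-fold, and 1 (CDH2) with a pseudocount of 5 or at 4-fold. The 888 genes at 2-fold became 1344 with a pseudocount of 0.1, 284 with 5, 431 at a mean of at least 5, 457 at a mean of at least 1 and below 5, 2307 at 1.5-fold and 174 at 4-fold; the last 4 compare fewer genes or use another threshold. Scaling to a common sum, centring, equal upper quartiles and scaling without mitochondrial genes left 2 members at 2-fold. So did the most abundant transcript only and leaving out incomplete transcripts. Keeping protein-coding transcripts only could not change the members, since the deposited labels class all their listed transcripts as protein-coding. The CDH2 log2 ratio ranged from 1.46 without incomplete transcripts to 3.66 with a pseudocount of 0.1. Leaving out incomplete transcripts and the range of means from 1 to 5 were chosen after seeing the data. Of 90 list medians under alternatives, 4 moved by more than 0.2. Other cadherins stood at -0.27 with a pseudocount of 5, at 0 with no filter and at -1.02 at a mean of at least 5, and mesenchymal genes at 0.0345 with no filter. Pseudocounts shrink ratios of low values by construction, and filters change which genes enter. Few steps lay behind SNAI2 in PC9 and behind ZEB1 and ZEB2 in both lines, and none behind TWIST1.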

Other observations

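Genes whose products work with or on the SNAI, ZEB and cadherin proteins were counted in 2 lists, beside a share of 7.77% of all compared genes at 2-fold; counts this small are near that share. Of 16 corepressors and partners of SNAI and ZEB factors, 15 were compared, 8 lay above 0, 1 was at least 2-fold higher and none was at least 2-fold lower (median log2 ratio 0.10). This gene was LOXL3, a lysyl oxidase family gene whose product can bind Snail, at 9.60 FPKM in MTAC-P and 0.6001 in PC9 (2.73), which passed the minimum mean only through MTAC-P. Of 20 genes for the turnover of SNAI and cadherin proteins 19 were compared, 13 lay above 0 and none reached 2-fold (median 0.08). The most abundant were ARF6, a GTPase of endocytic recycling (92.4 FPKM in MTAC-P and 87.5 in PC9), and RAB11A, a GTPase of recycling endosomes (79.8 and 63.4, of which 12.2% and 17.1% came from protein-coding transcripts).

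Among 23 intermediate filament genes other than VIM, 14 were compared, 8 lay above 0 and none reached 2-fold (median 0.10). Of all compared genes, 47.6% lay above 0 and 7.77% reached 2-fold, and a count of 0 in a list of this size is near that share. KRT18 had a log2 ratio of 0.22 and KRT19 of -0.35.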
